A study of Mus musculus with 9 samples.

Results

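The 10 reactive astrocyte genes Gfap, Vim, Serpina3n, Osmr, S1pr3, Sphk1, Lcn2, Cd44, Steap4 and Stat3 were followed in mouse spinal cord after nerve injury, with and without a BMP receptor inhibitor. They were chosen by symbol, with earlier results of these data known, so their shares beside those of all genes are a description. Each of the 10 has a row among the 40879 gene symbols of the deposited tables. All passed the filter on low counts, which left 18245 genes. RNA from cord of male mice had been sequenced in 9 libraries, 3 from each of 3 groups: sham surgery, SNI, which in pain research stands for spared nerve injury (cutting of some branches of the sciatic nerve while another is left whole), and SNI with LDN193189, a small-molecule inhibitor of BMP type I receptor kinases. Strain, age, level and side of the cord, interval from surgery to sampling, and how and how much LDN193189 was given are not given in the sources used here, and there is no group with LDN193189 and no injury. The columns of the tables carry letters; L was read as LDN193189, N as SNI and S as sham, the only reading in which each letter occurs in its own group's title, and if S and N were swapped, every direction between sham and SNI would turn. Sprr1a, a gene switched on in axotomised neurons, was at 0.161 to 0.235 CPM (read counts over the library's total after scaling) in the columns read as sham, 6.62 to 22.98 in SNI and 0.688 to 17.4 in SNI+LDN193189.

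Astrocytes respond to injury of the nervous system by enlarging their skeleton of intermediate filaments and switching on genes of secreted and surface proteins, a state called reactive gliosis. In that response cytokines of the interleukin-6 family, such as oncostatin M, bind receptors that share the gp130 subunit, JAK kinases phosphorylate the transcription factor STAT3, and STAT3 drives genes such as Gfap and Serpina3n. Lcn2, Steap4, S1pr3, Osmr, Cd44, Vim, Gfap and Serpina3n are among the genes known as shared by several kinds of reactive astrocyte, and Sphk1 among those described after ischaemia. Several of them are also made by other cells: Vim by fibroblasts, endothelium and Schwann cells, Lcn2 by neutrophils, Osmr and S1pr3 by fibroblasts and vessels, and Cd44 by leukocytes. In whole cord, fewer cells of a type and less RNA per cell cannot be told apart.

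The stretches upstream of the genes are shown because STAT3 and the factor AP-1 are the textbook drivers of this response, so their letters are the first a reader would look for. RefSeq windows of 250 bases before to 50 after a start site (GRCm38.p6) were found for 10 of the 10 genes, 14 windows in all. They were searched for the STAT motif TTCNNNGAA and the AP-1 motif TGANTCA. Each reads the same on both strands and the 2 do not overlap each other in these windows. Capitals mark a match. The lines give all upstream bases of S1pr3, the part of the Steap4 window that lies before the annotated exon, and 30 bases around the matches of Gfap and Sphk1.
S1pr3, chr13:51408368-51408617, plus strand: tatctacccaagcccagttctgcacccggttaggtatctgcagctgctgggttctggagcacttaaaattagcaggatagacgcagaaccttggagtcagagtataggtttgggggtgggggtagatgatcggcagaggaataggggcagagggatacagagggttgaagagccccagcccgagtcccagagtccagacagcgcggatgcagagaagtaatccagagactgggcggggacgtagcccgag
Steap4, chr5:7960222-7960456, plus strand: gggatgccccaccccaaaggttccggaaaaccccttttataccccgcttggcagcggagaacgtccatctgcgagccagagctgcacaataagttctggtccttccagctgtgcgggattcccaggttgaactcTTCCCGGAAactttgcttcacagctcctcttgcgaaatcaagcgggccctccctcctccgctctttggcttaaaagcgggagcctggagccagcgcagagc
Gfap, chr11:102897194-102897223, minus strand: caggctattcaatgggggtgcTTCCAGGAA
Sphk1, chr11:116531781-116531810, plus strand: tgtcgcTGAGTCAccTTCTCGGAAggcact
The Steap4 match lay 116 to 108 bases before the start site. The Gfap match ran from 2 bases before the start to 7 after it. The Sphk1 matches to AP-1 and STAT stood side by side, the STAT match 41 to 33 bases before one annotated start and 115 to 107 before another. The STAT letters were in 4 of the 14 windows, which belong to 3 of the 10 genes, some with overlapping windows, and in 8.3% of the 32851 windows of the table (6.98% of the windows of genes tested). The AP-1 letters were in 3 of the 14 windows, of the 2 genes Sphk1 and Osmr (TGATTCA, 4 to 10 bases after the start), and in 7.81% of all windows (5.71% of those of genes tested). A match is a description of these letters and not a binding site.

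All 10 genes are protein-coding in GENCODE M21 (GRCm38). Gfap (chr11:102887336-102900912, minus strand), Stat3 (chr11:100885098-100939540, minus) and Sphk1 (chr11:116530925-116536674, plus) lie on chromosome 11. Vim (chr2:13573927-13582826, plus), Lcn2 (chr2:32384633-32388252, minus) and Cd44 (chr2:102811141-102901665, minus) lie on chromosome 2. Serpina3n is at chr12:104406729-104414329 (plus), Osmr at chr15:6813577-6874969 (minus), S1pr3 at chr13:51408639-51422797 (plus) and Steap4 at chr5:7960457-7982213 (plus). An exon of Stat3 overlaps Stat5a on the opposite strand, and exons of Gfap, S1pr3 and Sphk1 touch non-coding genes on the opposite strand. The libraries marked strand, but whether the counting used it is not given in the sources used here, so reads of such pairs cannot be told apart.

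Levels between genes can be set side by side in FPKM, the deposited counts per length of gene and library total. The lengths behind it ran from 847 bases for Lcn2 to 7418 for Gfap. Which transcripts they cover is not given in the sources used here, so close ranks between genes rest on them. Gfap, the main filament protein of astrocytes, was at 135 to 206 FPKM over the 9 libraries. Vim, the filament protein vimentin, followed with 27.4 to 97.0 FPKM. Serpina3n, a secreted serine protease inhibitor, was at 21.3 to 25.8 FPKM and Stat3 at 18.0 to 20.1. Gfap was thus above every other member in all 9 libraries, Vim above Serpina3n and Serpina3n above Stat3. Lcn2, which codes for the iron-siderophore carrier lipocalin 2, was spread from 2.48 to 34.0 FPKM and overlapped Cd44, the hyaluronan receptor, at 3.67 to 4.48. S1pr3, a receptor of sphingosine 1-phosphate, was at 1.28 to 3.95 FPKM and Osmr, the receptor subunit of oncostatin M, at 1.35 to 2.51. Their ranges overlapped in sham and in SNI, and with the compound S1pr3 (1.55 to 1.81) was above Osmr (1.45 to 1.52). Sphk1, a kinase that makes sphingosine 1-phosphate, was at 0.721 to 1.22 FPKM and Steap4, a metalloreductase, at 0.301 to 2.404. In SNI Sphk1 (0.963 to 1.18) was above Steap4 (0.363 to 0.483), and in the other groups their ranges overlapped.

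**Figure D1:**
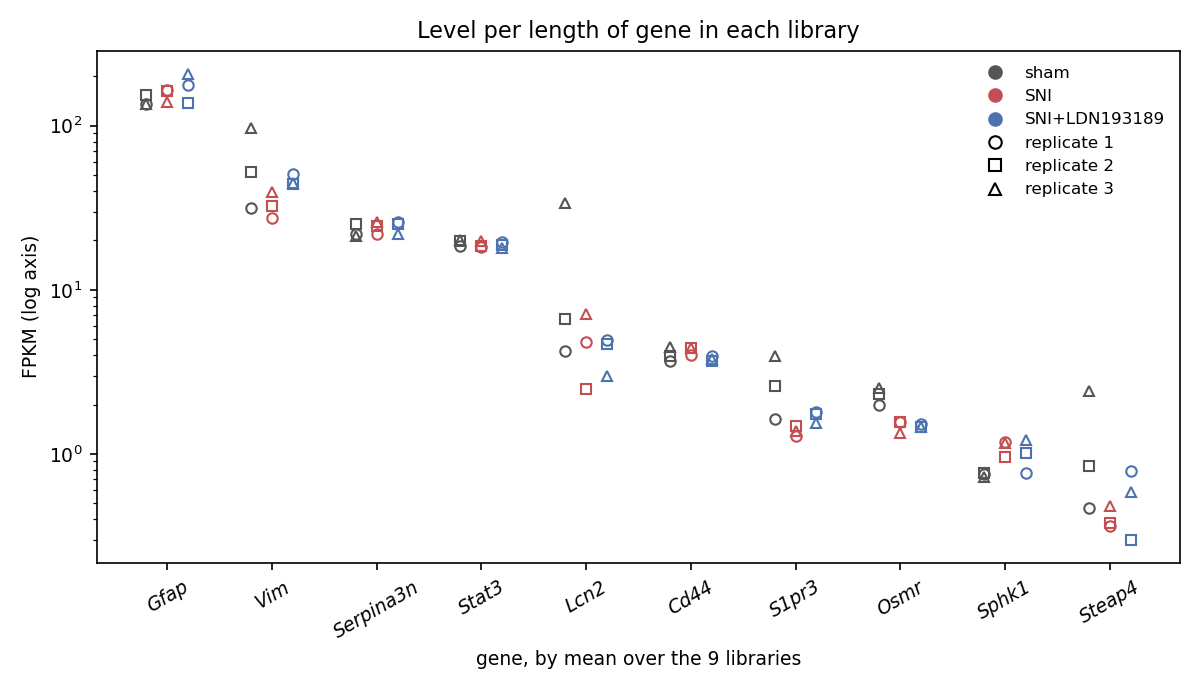
Level of each gene per length (FPKM, log axis) in the 9 libraries, with colours for the groups and marker shapes for the replicate numbers; genes are ordered by their mean. Gfap lies at 135 to 206 FPKM in every library, while Lcn2 runs from 2.48 to 34.0.

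Totals ran from 33432776 to 37190467 counts, and each sham library stood apart in the markers of some other tissue. Sham 3 held 6037 CPM summed over 10 Schwann cell and nerve root markers, against 328 to 2177 in the other 8 libraries, and each of the 10 markers was highest there. The same library had 915 CPM of meningeal fibroblast markers (others 129 to 363; 11 of 11 detected markers highest there, Ogn at 0 throughout), 400 CPM of neutrophil and monocyte markers (others 14.2 to 62.4; 9 of 9) and 19.6 CPM of perivascular macrophage markers (others 5.41 to 10.3; 6 of 6). The summed level of 18 astrocyte identity genes, led by Slc1a2 and Glul, was 11000 CPM in sham 3 and 11580 to 12740 elsewhere. None of them was highest in sham 3. Aqp4, one of them, is listed at 0 in all libraries, as are the microglial markers P2ry12 and Gpr34. Here and below, whether such a 0 means absent RNA or a gene that was not counted cannot be told from these data. Sham 1 held 730 CPM of skeletal muscle markers against 78.7 to 112 elsewhere. Sham 2 held 152 CPM of sensory ganglion neuron markers against 73.8 to 104 elsewhere, with 11.76 CPM of the sodium channel gene Scn10a (others 0.0554 to 1.507). Differences of the 10 genes from sham are given with and without sham 3, the highest library for 5 of them. Replicates are biosamples in the labels, which name no animals, so the spread behind each p-value is that of these samples and may be technical.

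Sham 3 was the highest of the 9 libraries for 5 of the 10 genes, Vim, Osmr, S1pr3, Lcn2 and Steap4. Over all genes tested sham 3 was the highest for 17.5%. Its level exceeded the highest of the other 8 libraries by more than 1.5 times for 3 of the 10 (Vim, Lcn2 and Steap4), against 2.69% of all genes. Against the median of the other 8 libraries, sham 3 held 6.93 times the Lcn2 level, 5.01 times that of Steap4, 2.45 times that of S1pr3, 2.27 times that of Vim and 1.59 times that of Osmr. For Cd44 and Stat3 the ratio was 1.09 and 1.05. Gfap, Serpina3n and Sphk1 were lowest in this library, at 0.833, 0.836 and 0.711 times that median. The part of the higher nerve root, fibroblast and leukocyte markers of this library in these levels was not tested. Fits without this library and with a nerve root covariate are given below.

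**Figure D2:**
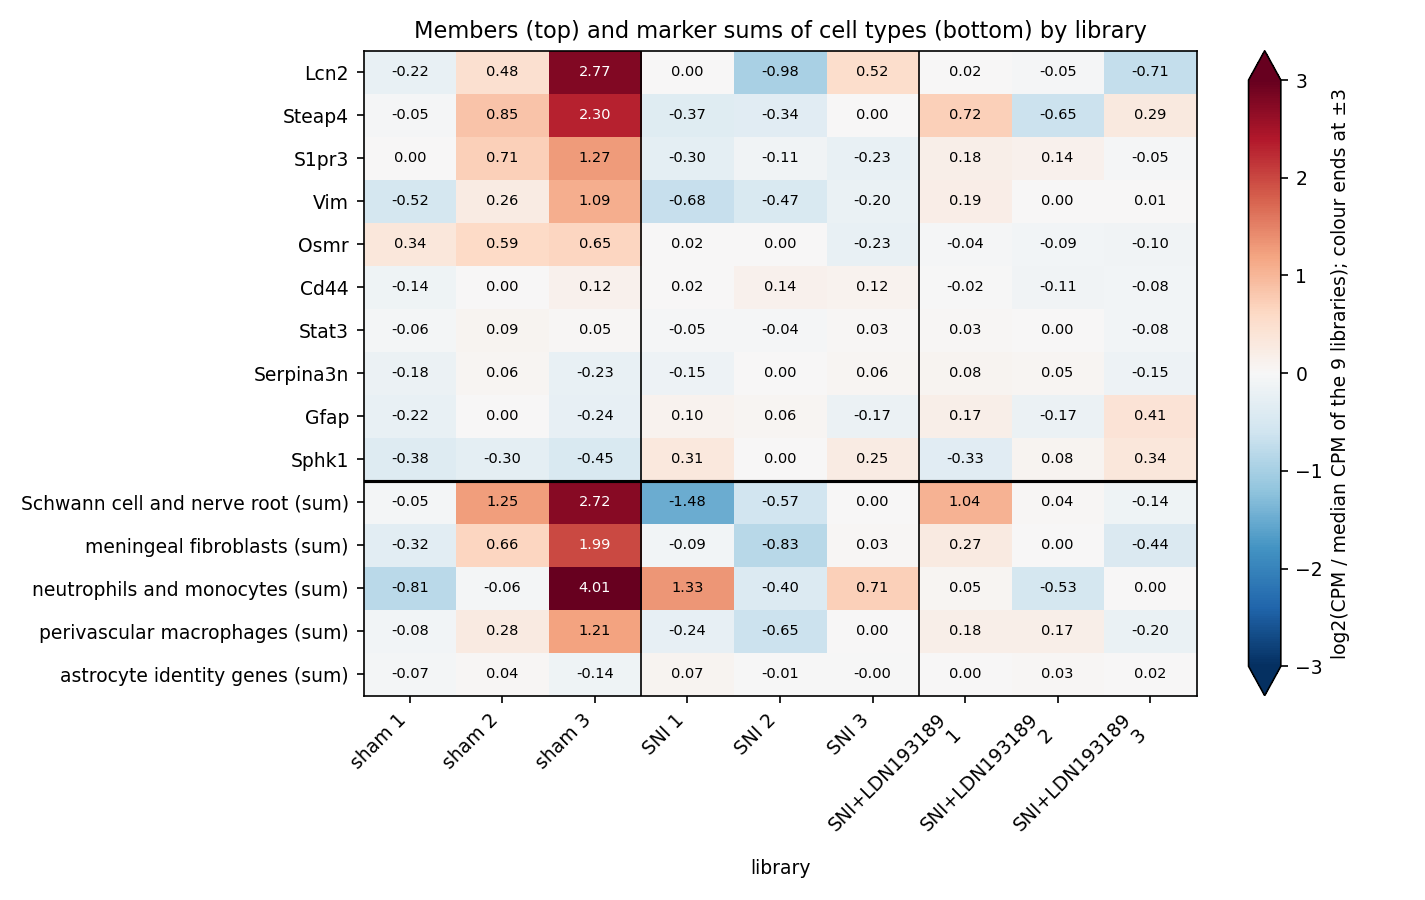
Each cell is the log2 ratio of a library's CPM to the median of the 9 libraries for the 10 genes (top) and for summed cell type markers (bottom). Sham 3 is the highest library in the rows of Lcn2, Steap4, S1pr3, Vim and Osmr and in the rows of nerve root, fibroblast, neutrophil and macrophage markers, and is not in those of Gfap, Sphk1 or the astrocyte identity genes.

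Between SNI and sham, 0 of the 10 genes passed an adjusted p of 0.05 in the edgeR quasi-likelihood test with Benjamini-Hochberg (BH) adjustment over the 18245 genes, and 0% of all genes did. At an unadjusted p under 0.05 stood 4 of the 10 (Osmr, S1pr3 and Steap4 lower in SNI, Sphk1 higher), against 5.33% of all genes. DESeq2 called 2 of the 10 as lower, Osmr and S1pr3, against 0.0989% of the genes it gave an adjusted p, and 0 as higher (0.022% of genes). Without sham 3, 0 of the 10 were called by either tool, with DESeq2 adjusted p of 0.15 for Osmr and 0.434 for S1pr3. Groups did not overlap with SNI lower for 2 of the 10 (Osmr and S1pr3; 4.43% of all genes) and with SNI higher for 1 (Sphk1; 4.45%). The median log2 fold change was -0.32 over the 10 genes and 0.000482 over all genes. For the 10 it was -0.12 without sham 3 and turned to 0.15 with the summed nerve root markers as covariate. These markers were at 328 to 916 CPM in SNI and 883 to 6037 in sham, ranges that barely overlap. The covariate thus largely goes with group, and its fit leaves 5 residual degrees of freedom. Values fitted with it, here and below, do not separate nerve root from injury. Of the 10, 6 were lower in SNI, as were 49.9% of all genes.

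Between SNI+LDN193189 and SNI the edgeR test passed 0 of the 10 genes and 0.00548% of all genes, and DESeq2 passed 0 of the 10 either as higher or as lower (0.0165% of genes in each direction). None of the 10 had an unadjusted p under 0.05, which 3.88% of all genes had. The groups did not overlap for Vim and S1pr3, higher with the compound (5.71% of all genes), and for Cd44, lower with it (5.55%). The median log2 fold change of the 10 was 0.01, and 6 of them were higher, as were 49.8% of all genes. Between SNI+LDN193189 and sham, edgeR passed 0 of the 10 and 0.0164% of all genes. DESeq2 passed Osmr as lower (1 of 10; 0.26% of genes) and 0 as higher (0.215%); without sham 3 the DESeq2 adjusted p of Osmr was 0.0842, and 0 of the 10 were called by either tool. An unadjusted p under 0.05 was reached by Osmr, S1pr3 and Sphk1 (3 of 10; 8.56% of all genes). Osmr was the only one of the 10 whose groups did not overlap, lower with the compound (6.31% of all genes), and 0 of the 10 were higher without overlap (6.81%). Of the 10, 7 were lower than in sham, as were 52% of all genes, with a median of -0.21 that was -0.02 without sham 3 and 0.0101 with the nerve root covariate. Both comparisons with sham share the sham libraries, so their values are not independent of each other.

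**Figure D3:**
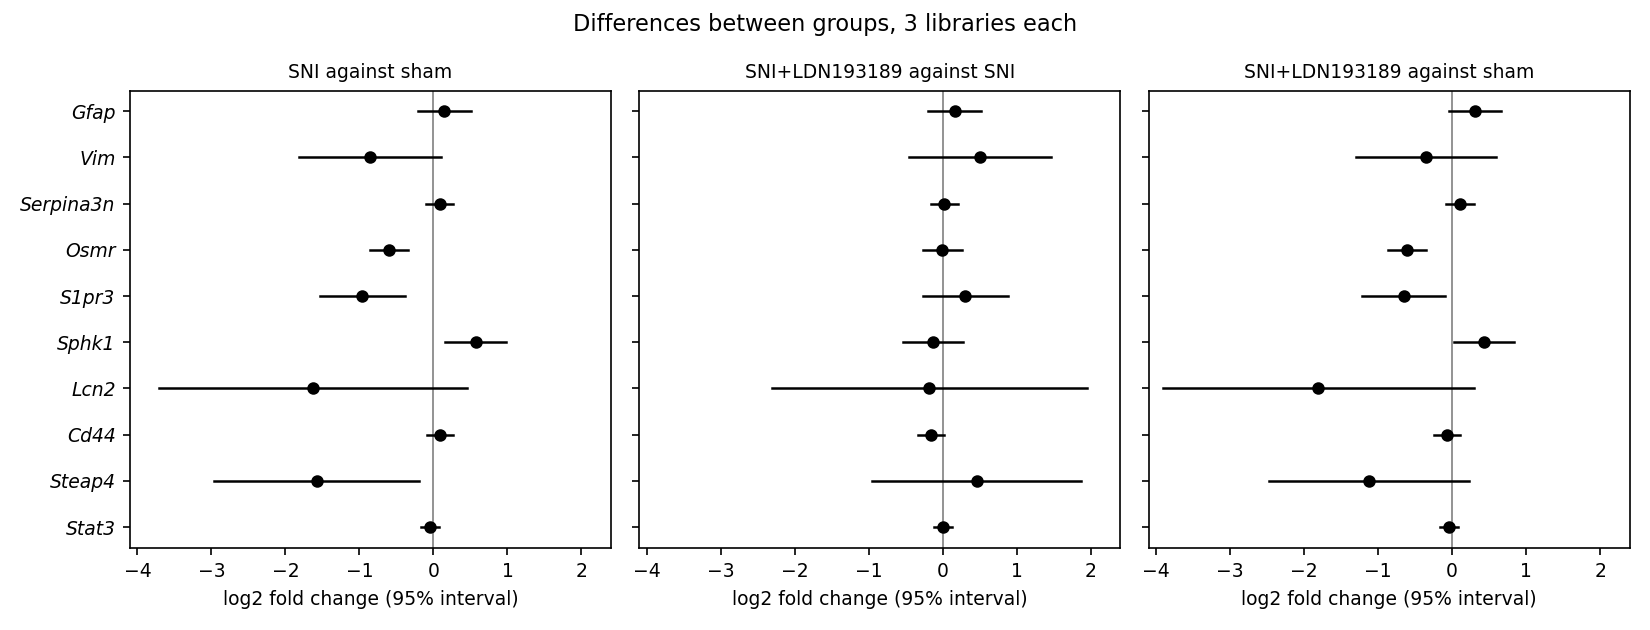
Points are log2 fold changes of the 10 genes in the 3 comparisons from the edgeR fit over all 9 libraries, and lines are 95% intervals. The intervals of Lcn2 and Steap4 are the widest in each panel, and those of Stat3, at -0.04, 0.00436 and -0.04, the narrowest.

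Gfap was the most abundant of the 10 and its groups overlapped in all comparisons. The levels were 992, 1156 and 981 CPM in the sham libraries 1 to 3, 1241, 1201 and 1025 in SNI, and 1305, 1029 and 1537 in SNI+LDN193189. The sham libraries lie at or below the median of the 9, and the highest value is SNI+LDN193189 replicate 3. SNI against sham gave a log2 fold change of 0.15 ± 0.151 (SE; edgeR adjusted p = 0.965). SNI+LDN193189 against SNI gave 0.16 ± 0.151 (adjusted p = 1), and SNI+LDN193189 against sham 0.31 ± 0.151 (adjusted p = 0.622). The interval of SNI against sham, -0.20 to 0.50, leaves room for a Gfap level up to 0.50 log2 units higher after injury. Without sham 3 the 2 differences from sham were 0.10 and 0.26.

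Vim varied more within sham than between groups. The 3 sham libraries held 56.9, 97.2 and 173 CPM, the SNI libraries 50.7, 58.9 and 71.1, and the SNI+LDN193189 libraries 92.9, 81.4 and 82.2. Sham alone spans 3.05 times from lowest to highest, and all 3 libraries with the compound lie above all 3 of SNI alone. The SNI to sham difference was -0.86 ± 0.395 (edgeR adjusted p = 0.929) and -0.35 without sham 3, and it turned to 0.21 with the nerve root covariate (adjusted p = 0.999). SNI+LDN193189 exceeded SNI by 0.51 ± 0.395 (adjusted p = 1), a difference within the replicate error of the fit despite the lack of overlap, and nerve root markers summed to 832 to 1890 CPM in the former and 328 to 916 in the latter. The difference of SNI+LDN193189 from sham turned from -0.35 ± 0.391 to 0.15 without sham 3 and to 0.26 with the covariate.

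**Figure D4:**
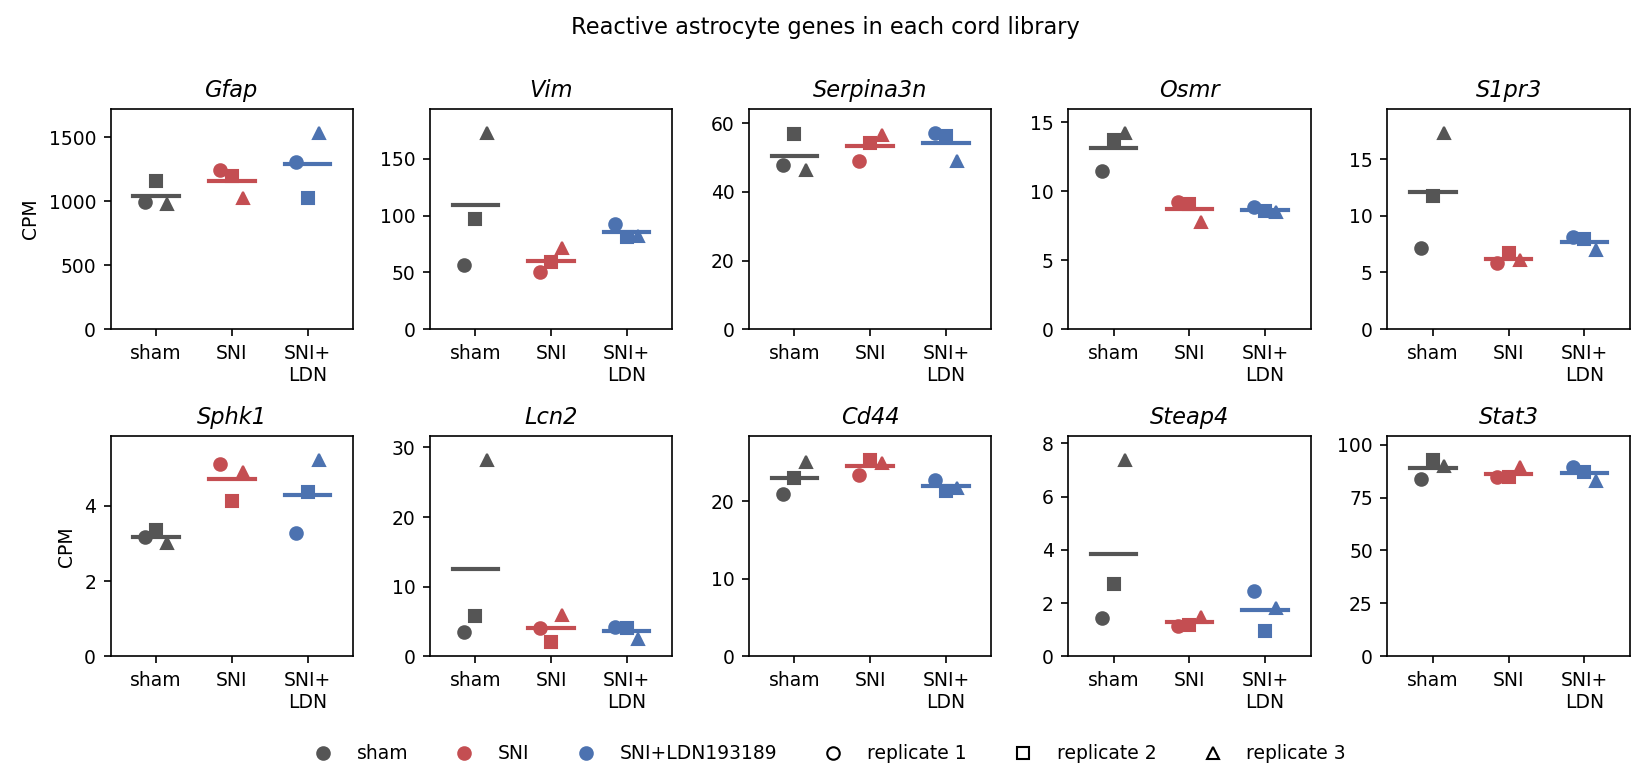
CPM of each gene in the 9 libraries, on linear axes from 0, with a bar at each group's mean and marker shapes for replicate numbers. Osmr is at 11.5 to 14.3 CPM in sham and 7.75 to 9.21 in the 6 injured libraries, while Lcn2 and Steap4 each have 1 sham library, replicate 3, far above the rest.

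The other intermediate filaments and linkers of astrocytes (Nes, Synm, Plec, Des and Lmna) gave 0 of 5 called by edgeR or DESeq2 in either direction in any of the comparisons, with a median log2 fold change of -0.15 in SNI against sham. The smallest p belonged to Des, the muscle filament desmin, at 0.875 ± 0.201 CPM in SNI and 7.01 ± 8.75 in sham (SD, n = 3; edgeR adjusted p = 0.927). Nes, the filament nestin, was at 20.3 ± 1.98 CPM in SNI, 43.4 ± 25.5 in sham and 23.9 ± 8.12 in SNI+LDN193189 (SNI against sham -1.09 ± 0.449, SE; edgeR adjusted p = 0.927). Des was at 17.1 CPM in sham 1, the library with the high muscle markers, and at 1.76 and 2.15 in the other sham libraries, and its difference of -3.0 ± 1.03 (SE) between SNI and sham was -1.16 without sham 1. Nes was at 72.6 CPM in sham 3 and at 25.4 and 32.3 in the other sham libraries, and its difference was -0.51 without sham 3.

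Osmr had the most even difference of the 10. It was at 11.5, 13.7 and 14.3 CPM in sham, 9.21, 9.10 and 7.75 in SNI, and 8.85, 8.54 and 8.48 in SNI+LDN193189. All 6 injured libraries lie below all 3 sham libraries, and the SNI and SNI+LDN193189 ranges overlap. The difference of SNI from sham was -0.60 ± 0.123 (SE), an SNI level 0.66 times that of sham, with an edgeR adjusted p of 0.62 and a DESeq2 adjusted p of 0.0153. By edgeR's p it ranked 3 among all genes tested. SNI+LDN193189 against sham was -0.61 ± 0.123 (edgeR adjusted p = 0.162, DESeq2 0.00418). SNI+LDN193189 against SNI was -0.01 ± 0.124, with an interval of -0.27 to 0.25 that includes 0. The joint edgeR test of the 3 groups gave Osmr an adjusted p of 0.298 (DESeq2 0.00107), where 0.00548% of genes and 0 of the 10 passed in edgeR. DESeq2 passed 2 of the 10 jointly, Osmr and S1pr3 (adjusted p = 0.033), and 0.438% of genes; without sham 3 these p-values were 0.0525 and 0.483.

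Over the 16 alternatives to the edgeR settings, the Osmr difference between SNI and sham ran from -0.69 to -0.49, with adjusted p from 0.0153 to 0.997. Without sham 3 it was -0.54 (edgeR adjusted p = 0.997; -0.55 for SNI+LDN193189 against sham), and with nerve root level as covariate -0.49 (adjusted p = 0.996). Without sham replicate 1 it was -0.69 with an edgeR adjusted p of 0.0415. The size of the Osmr difference moved little, while its call depended on the tool and on sham replicates 1 and 3. Markers of fibroblasts and of vessel cells, which also make Osmr, had mostly lower means than in sham. Of 11 meningeal fibroblast markers, 11 were lower in SNI than in sham (median log2 fold change -1.34; 129 to 235 CPM in sum against 184 to 915) and 10 in SNI+LDN193189 (-0.89; 170 to 278 CPM). Of 8 endothelial markers, 8 were lower in SNI (-0.09; 265 to 309 CPM in sum against 278 to 338) and 7 in SNI+LDN193189 (-0.30; 243 to 269 CPM). Of 7 mural cell markers, 5 were lower in SNI (median -0.13, 233 to 250 CPM in sum against 195 to 289). In SNI+LDN193189 6 were lower (-0.115, 208.5 to 220.4 CPM). EdgeR called 0 of these markers in either comparison. DESeq2 called the endothelial genes Cldn5 and Kdr as lower in SNI+LDN193189 than in sham (adjusted p = 0.00243 and 0.00376). In each of these lists sham 3 had the highest sum of all libraries. Sham 1 and 2 held 184 and 363 CPM of fibroblast markers and 295 and 278 of endothelial markers, which overlap the SNI ranges. Their mural sums, 215 and 195 CPM, were below those of all SNI libraries. The part of fibroblasts and vessels in the Osmr difference was not tested.

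The partners of Osmr in cytokine signalling gave no call. Of 9 ligands of the interleukin-6 family, Il6, Cntf, Clcf1 and Il31 are listed at 0 in all libraries, and 0 of the 4 tested were called by edgeR or DESeq2 in any comparison. Of 6 further receptor genes of the family, 0 were called by either tool, with a median of -0.08. Il6ra, the interleukin-6 receptor, was at 4.14 ± 0.290 CPM in SNI and 5.12 ± 0.448 in sham (-0.31 ± 0.157, SE; edgeR adjusted p = 0.929). Il11ra1, the interleukin-11 receptor, and Cntfr, that of ciliary neurotrophic factor, differed by -0.15 ± 0.0854 and 0.09 ± 0.0585.

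Stat3, the transcription factor downstream of gp130, was flat at the RNA level. Its levels were 83.8, 92.7 and 90.1 CPM in sham, 84.5, 84.6 and 89.2 in SNI, and 89.3, 87.3 and 82.6 in SNI+LDN193189. The groups overlap throughout. SNI against sham was -0.04 ± 0.0563 (edgeR adjusted p = 0.978), with an interval of -0.16 to 0.08, and -0.04 without sham 3. SNI+LDN193189 differed from SNI by 0.00436 ± 0.0564. Phosphorylation of STAT3, which controls its activity, is not measured by these data.

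Of 13 JAK kinases and brakes of STAT3, 0 were called by edgeR or DESeq2 in any comparison, and their median in SNI against sham was -0.01. Pias3, an inhibitor of STAT3, was at 22.9 ± 1.32 CPM in SNI and 19.9 ± 1.34 in sham (0.20 ± 0.0838, SE; edgeR adjusted p = 0.927). Socs3, the feedback inhibitor that STAT3 itself switches on, was at 1.90 ± 0.203 CPM in SNI, 2.85 ± 1.24 in sham and 1.801 ± 0.383 with the compound (SD, n = 3). Its SNI against sham difference of -0.59 ± 0.291 (SE) had an edgeR adjusted p of 0.927, and was -0.20 without sham 3. Jak2, a kinase bound to gp130, was at 60.9 ± 2.85 and 65.8 ± 4.72 CPM. Of 12 textbook STAT3 target genes, Fgl2 is listed at 0 and 0 of the 11 tested were called by either tool in any comparison, with a median of -0.17 in SNI against sham. Beside Socs3, the smallest p-values were those of Myc (3.50 ± 0.189 CPM in SNI, 4.51 ± 1.05 in sham) and Il4ra (7.95 ± 0.838 and 6.55 ± 0.977).

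The 2 members of the sphingosine 1-phosphate pathway differed from sham in opposite directions, and neither difference passed the adjusted edgeR test over all 9 libraries. This lipid is made by sphingosine kinases inside cells, exported, and sensed by a family of G protein-coupled receptors. S1pr3 was at 7.19, 11.8 and 17.3 CPM in sham, 5.83, 6.67 and 6.12 in SNI, and 8.13, 7.92 and 6.96 in SNI+LDN193189. SNI lies below both other groups without overlap, and the lowest sham library falls inside the range of SNI+LDN193189. SNI differed from sham by -0.96 ± 0.256 (SE; edgeR adjusted p = 0.9, DESeq2 0.0357). SNI+LDN193189 differed from SNI by 0.30 ± 0.258 (edgeR adjusted p = 1) and from sham by -0.66 ± 0.254 (adjusted p = 0.555). Without sham 3 the latter was -0.31. The S1pr3 difference between SNI and sham was -0.61 without sham 3, -0.20 with nerve root level as covariate (edgeR adjusted p = 0.999) and -1.23 without sham replicate 1 (adjusted p = 0.00519). The sham order of S1pr3 and that of the nerve root markers were the same (883, 2177 and 6037 CPM). Vim, Osmr, Lcn2, Steap4 and Cd44 had this sham order too. So did the summed markers of meningeal fibroblasts (184, 363 and 915 CPM), neutrophils and monocytes (14.2, 23.9 and 400) and perivascular macrophages (8.04, 10.3 and 19.6). The order thus does not single out nerve root, and its share over all genes was not counted. The part of nerve root or of these other cells in the differences of the members was not tested.

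Sphk1 lay the other way. Its levels were 3.16, 3.34 and 3.01 CPM in sham, 5.11, 4.12 and 4.90 in SNI, and 3.28, 4.36 and 5.21 in SNI+LDN193189. All 3 SNI libraries exceed all 3 sham libraries, and SNI+LDN193189 replicate 1 lies in the sham range. SNI against sham was 0.57 ± 0.191 (SE; edgeR adjusted p = 0.927, DESeq2 0.499), an SNI level 1.48 times that of sham. SNI+LDN193189 differed from sham by 0.43 ± 0.192 (adjusted p = 0.57) and from SNI by -0.14 ± 0.189 (adjusted p = 1). Without sham 3 the Sphk1 differences of SNI and of SNI+LDN193189 from sham were 0.53 and 0.39, and over the 16 alternatives it ran from 0.36 to 0.65, with the lowest value under the nerve root covariate and adjusted p from 0.48 to 1.

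Of the 13 other genes of the pathway, 0 were called by edgeR or DESeq2 in any comparison, and their median in SNI against sham was 0.02. Spns2, an exporter of sphingosine 1-phosphate, was at 51.6 ± 3.93 CPM in SNI, 46.5 ± 3.30 in sham and 53.0 ± 1.43 with the compound (SD, n = 3). S1pr5, the receptor of oligodendrocytes, was at 47.9 ± 4.63, 43.0 ± 3.07 and 52.5 ± 1.92 CPM in the same order. Their SNI against sham differences were 0.15 ± 0.07 and 0.15 ± 0.0761 (SE; edgeR adjusted p = 0.927 for each). Sphk2, the second sphingosine kinase, differed by -0.18 ± 0.1.

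Serpina3n, a classic marker of reactive astrocytes, showed no difference beyond the replicate spread. It was at 48.0, 56.8 and 46.3 CPM in sham, 49.1, 54.4 and 56.6 in SNI, and 57.3, 56.4 and 48.9 in SNI+LDN193189. All 3 ranges overlap. SNI against sham was 0.08 ± 0.0862 (SE; edgeR adjusted p = 0.965), with an interval of -0.10 to 0.27. SNI+LDN193189 differed from SNI by 0.02 ± 0.0861 and from sham by 0.11 ± 0.0862. Without sham 3 the differences from sham were 0.03 and 0.05.

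Lcn2 had 1 library far above the others. The sham libraries held 3.54, 5.75 and 28.2 CPM, the SNI libraries 4.13, 2.10 and 5.92, and the SNI+LDN193189 libraries 4.195, 4.00 and 2.52. Outside sham 3 all 8 libraries lie between 2.10 and 5.92 CPM. SNI against sham was -1.63 ± 0.857 (SE; edgeR adjusted p = 0.941) and -0.20 without sham 3, and SNI+LDN193189 against sham was -1.81 ± 0.866 (adjusted p = 0.623) and -0.38 without it. With nerve root level as covariate the SNI to sham difference of Lcn2 turned to 0.61 (adjusted p = 0.999). Neutrophil and monocyte markers, of a cell type that makes lipocalin 2, summed to 400 CPM in sham 3, led by S100a9 and Ngp, and their part in the Lcn2 level was not tested.

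Steap4 shared its highest library with Lcn2, at a lower level. It was at 1.45, 2.70 and 7.37 CPM in sham, 1.16, 1.18 and 1.495 in SNI, and 2.47, 0.956 and 1.83 in SNI+LDN193189. Sham 3 is the highest library again, and the lowest sham library falls inside the SNI range. SNI against sham was -1.58 ± 0.6 (SE; edgeR adjusted p = 0.927), and -0.69 without sham 3. With nerve root level as covariate it was 0.14 (edgeR adjusted p = 0.999). SNI+LDN193189 against sham was -1.13 ± 0.587 (adjusted p = 0.639) and -0.24 without sham 3. Counts of Lcn2 and Steap4 were even numbers in 9 of 9 libraries; over all genes 70.7 to 71.8% of the nonzero counts per library were even, and no source used here says why.

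Of 11 genes for lipocalin 2 receptors and iron handling, Steap2 is listed at 0, and 0 of the 10 tested were called by edgeR in any comparison. DESeq2 called Fth1, the heavy chain of the iron store ferritin, as higher in SNI+LDN193189 than in sham, at 4807 ± 258 and 4015 ± 329 CPM (SD, n = 3; 0.26 ± 0.0686, SE; edgeR adjusted p = 0.355, DESeq2 0.0308, or 0.115 without sham 3). In SNI Fth1 was at 4013 ± 227 CPM, 0.26 ± 0.0686 below the group with the compound (DESeq2 adjusted p = 0.123). Ftl1, the ferritin light chain, Hmox1, which frees iron from haem, and Slc22a17, a lipocalin 2 receptor, had the smallest p in SNI against sham, with differences of -0.33 ± 0.15, -0.45 ± 0.225 and 0.09 ± 0.0501 (edgeR adjusted p = 0.927, 0.929 and 0.941), and of -0.16, -0.19 and 0.07 without sham 3. The median of this list was -0.05 in SNI against sham and 0.13 in SNI+LDN193189 against SNI.

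Cd44 was steady across the cord libraries. It was at 20.97, 23.1 and 25.1 CPM in sham, 23.4, 25.3 and 25.0 in SNI, and 22.8, 21.3 and 21.8 in SNI+LDN193189. The 3 libraries with the compound lie just below the 3 of SNI, and all of them lie within the sham range but for SNI replicate 2, just above it. SNI+LDN193189 against SNI was -0.16 ± 0.0834 (SE; edgeR adjusted p = 1), with an interval of -0.34 to 0.0138. SNI against sham was 0.09 ± 0.0831 (adjusted p = 0.958), and 0.16 without sham 3. Of 12 genes for CD44 ligands and hyaluronan handling, 0 were called by edgeR or DESeq2 in any comparison (median in SNI against sham 0.02). Cemip2, a cell surface hyaluronidase, was at 14.6 ± 0.733 CPM in SNI and 18.3 ± 2.75 in sham, Bcan, the proteoglycan brevican, at 243 ± 6.96 and 226 ± 8.06, and Spp1, the CD44 ligand osteopontin, at 152 ± 11.4 and 173 ± 29.5 (SD, n = 3).

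**Figure D5:**
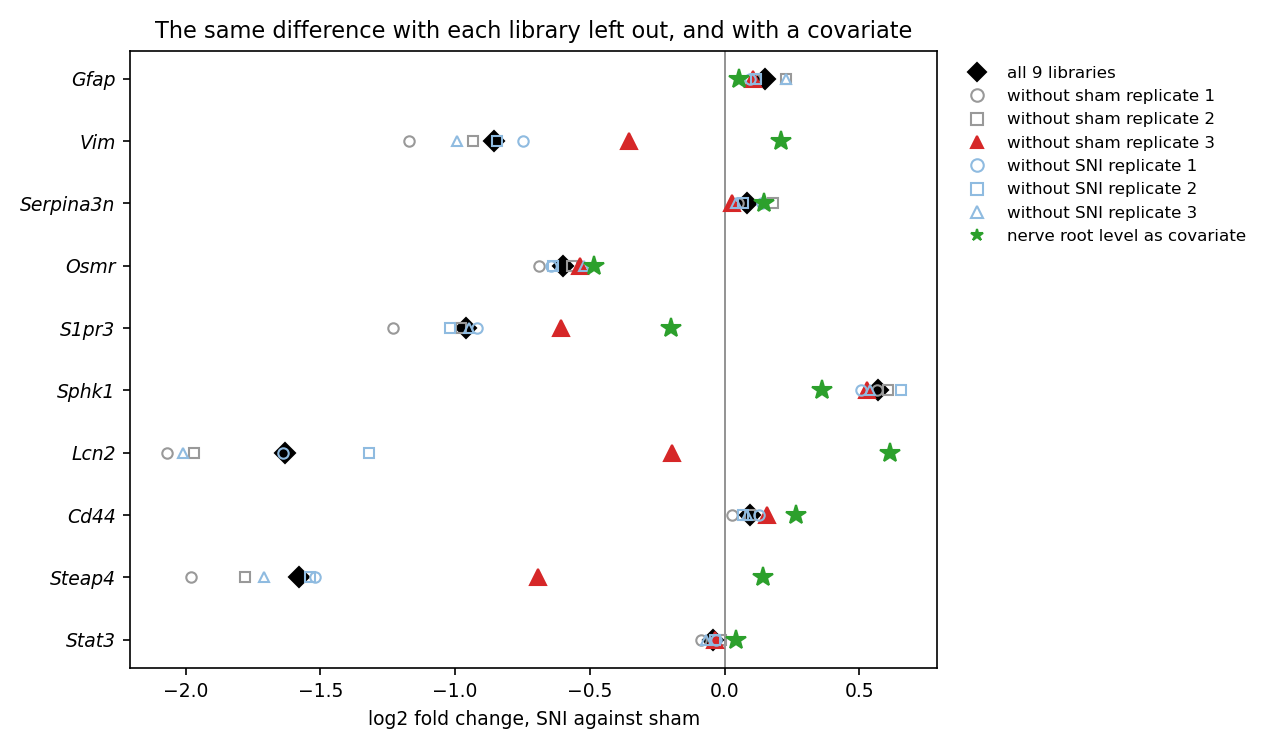
Log2 fold change of SNI against sham for each gene in the fit of all 9 libraries, with each of the 6 sham and SNI libraries left out, and with nerve root level as covariate. Without sham replicate 3 Lcn2 moves from -1.63 to -0.20 and Steap4 from -1.58 to -0.69, while Osmr moves from -0.60 to -0.54 and Sphk1 from 0.57 to 0.53.

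In the plot of differences with libraries left out, the members moved by unlike amounts. Osmr and Sphk1 kept between -0.69 and -0.52 and between 0.51 and 0.65 with any of the 6 libraries left out. Lcn2, Steap4, Vim and S1pr3 moved nearest to 0 when sham 3 was left out. Vim, Lcn2, Steap4 and Stat3 changed sign when the nerve root level entered the fit, where Osmr, S1pr3, Sphk1, Gfap, Serpina3n and Cd44 did not. S1pr3 kept its sign but went from -0.96 to -0.20. Both Stat3 values, -0.0447 and 0.0426, were smaller in size than its SE of 0.0563 in the fit of all 9 libraries.

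Other genes known from reactive astrocytes gave no call either. Of 5 other pan-reactive genes, Timp1 and Cxcl10 are listed at 0 in all libraries and 0 of the 3 tested were called by edgeR or DESeq2 in any comparison. Cp, the iron oxidase ceruloplasmin, was at 19.1 ± 3.14 CPM in SNI, 31.8 ± 12.9 in sham and 25.1 ± 3.78 with the compound, and Aspg and Hspb1 differed between SNI and sham by -0.12 ± 0.192 and -0.06 ± 0.138 (SE). Of 12 genes of the A1 type, known from neuroinflammation, H2-T23 and Ugt1a1 are listed at 0, and 0 of the 10 tested were called by either tool, with a median of -0.18 in SNI against sham. The smallest p-values were those of Fbln5, an elastic fibre protein (11.8 ± 1.04 CPM in SNI, 19.6 ± 8.79 in sham), Ggta1 (6.65 ± 0.924 and 9.09 ± 2.65) and Amigo2 (6.82 ± 0.973 and 8.33 ± 0.777). Of 11 genes of the A2 type, known from ischaemia, Clcf1 and Ptx3 are listed at 0 and 0 of the 8 tested were called, with a median of -0.23. Ptgs2, the prostaglandin synthase COX-2, was at 2.17 ± 0.155 CPM in SNI, 3.74 ± 0.681 in sham and 2.45 ± 0.489 with the compound (SNI against sham -0.78 ± 0.219, SE; edgeR adjusted p = 0.9, DESeq2 0.266). B3gnt5 and Cd109 differed by -1.98 ± 0.692 and -0.44 ± 0.177 (edgeR adjusted p = 0.927 for each). B3gnt5 was at 9.04 CPM in sham 3 and at 1.72 and 2.96 in the other sham libraries. Without sham 3 the differences of SNI from sham were -1.01 for B3gnt5, -0.34 for Cd109, -0.40 for Cp, -0.34 for Fbln5, -0.21 for Ggta1 and -0.71 for Ptgs2.

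The genes that mark astrocytes at rest hardly differed. Of 18 identity genes 17 were tested, 0 were called by edgeR, and their median log2 fold change was 0.05 for SNI against sham, 0.02 for the compound against SNI alone and 0.08 for the compound against sham. DESeq2 called Gja1, the gap junction protein connexin 43, as lower in SNI+LDN193189 (386 ± 2.84 CPM) than in sham (449 ± 17.1; -0.22 ± 0.0543, SE; edgeR adjusted p = 0.329, DESeq2 0.0267, or 0.0499 without sham 3). In SNI, Gja1 was at 442 ± 28.2 CPM. Gpr37l1, Kcnj10 (the potassium channel Kir4.1) and Slc1a2 (the glutamate transporter GLT-1) had the smallest p in SNI against sham, with differences of 0.13 ± 0.0545, 0.14 ± 0.0601 and 0.13 ± 0.0614 (edgeR adjusted p = 0.927 for each). Without sham 3 the medians of the 12 lists in SNI against sham lay between -0.16 (ligands of the interleukin-6 family) and 0.04 (identity genes), and edgeR called 0 genes of any of the 12.

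The genes whose log2 CPM followed a member most closely over the 9 libraries were looked up among 15185 genes, as a description. Osmr was followed most closely by Diaph3 (Pearson r = 0.98), Mpdz (0.96) and Dlc1 (0.93). Without sham 3 these were 0.96, 0.96 and 0.92. Sphk1 was followed by Glrx (0.98), Tmem186 (0.95) and Tapt1 (0.95). S1pr3 was followed by Snx7 (0.98), Gpc3 (0.97) and Lox (0.97), and Steap4 by Lama2, Fbln5 and Rell1 (0.98 for each). The nearest genes to Lcn2 were Anxa1, Lyz2 and Itm2a (0.98, 0.98 and 0.97, and 0.90, 0.89 and 0.86 without sham 3), and those to Vim Adamtsl5, Ahnak and Efemp1 (0.98 or more for each). All of the genes nearest to Osmr, S1pr3, Lcn2, Steap4 and Vim were highest in sham 3. These members were highest there too, so the choice of genes by likeness largely fixed this. Without sham 3 r was 0.95, 0.97 and 0.97 for S1pr3, 0.94, 0.92 and 0.92 for Steap4, and 0.96 for each gene of Vim. These values share libraries and so the makeup of the samples, and the nearest of so many genes over 9 libraries lie close in any case.

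Among the members themselves, the closest profiles over the 9 libraries were those of Vim and S1pr3 (Pearson r = 0.91), Vim and Steap4 (0.89), S1pr3 and Steap4 (0.885) and Osmr and S1pr3 (0.83). Without sham 3 these were 0.75, 0.68, 0.65 and 0.73, and the closest were Serpina3n and Stat3 (0.835, and 0.485 over all 9) and Lcn2 and Stat3 (0.78, and 0.62 over all 9). Gfap had an r of -0.545 to -0.14 with Vim, S1pr3, Lcn2 and Steap4, and of -0.457 to 0.378 without sham 3, where its r with Vim (0.24) and Steap4 (0.38) was above 0. Its r with Serpina3n, the other abundant marker of the reactive state, was 0.04, and -0.23 without sham 3. Between Osmr and Sphk1 r was -0.77, and -0.68 without sham 3.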

How the data were processed

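The authors deposited whole-number read counts per gene symbol and FPKM for 9 mouse spinal cord libraries (3 sham, 3 SNI, 3 SNI+LDN193189). Per the labels' protocols, poly(A) RNA went into libraries that keep strand, sequenced as pairs of 150 bp, though the text describes cell lines; per the submitters' processing notes the build was mm10. Which aligner, counter and annotation were used is not given in the sources used here. In each library, the deposited FPKM equalled count over library total over 1 length per gene for 26285 of 26285 genes with a count (relative tolerance 1e-09).

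Counts were tested with edgeR 4.0.16 (R 4.3.3; filterByExpr, TMM factors of 0.984 to 1.02, robust quasi-likelihood F test) in 1 fit of group means over the 9 libraries with 6 residual degrees of freedom. Adjusted p-values are Benjamini-Hochberg over 18245 genes, called under 0.05. The SE is the log2 fold change over the root of F. DESeq2 1.42.0, limma 3.58.1 (voom, and log2 of FPKM with a pseudocount of 0.1), other scalings, no filter, a nerve root covariate, a replicate block and leaving out each library were alternatives. On simulated counts for SNI against sham, 72% of 100 genes with a planted log2 change of 1 were recovered. These counts were drawn with the spread typical of each expression level. They hold no gene with a larger spread and no library that stands apart as sham 3 does. The share thus does not apply to Vim, Steap4 and Lcn2, whose SEs in SNI against sham were 0.395, 0.6 and 0.857. Total counts, 33432776 to 37190467, limit genes such as Steap4 and Sphk1 most. Replicates differed by 5.61 to 35.8 times the variance of counting (chi-square per degree of freedom), and each was kept as a library of its own. Separate libraries of the same sample can differ by more than counting too, so this check cannot exclude technical repeats. Python 3.11.15, numpy 2.4.6, pandas 2.3.3 and matplotlib 3.10.9 served for tables and figures. Named besides the 10 genes were, per list, members listed at 0, those called and up to 3 with the smallest p in SNI against sham, and the 3 genes nearest to a member with a mean of at least 1 CPM. Some genes that this rule names are not reported here. The members and lists were chosen with earlier results of these data known.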

Additional observations from a re-analysis of the deposited data

How the results depend on the processing

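The number of genes called by edgeR at an adjusted p under 0.05 was 0 for SNI against sham, 1 for SNI+LDN193189 against SNI, 3 for SNI+LDN193189 against sham and 1 in the joint test. DESeq2 called 22, 6, 73 and 75, and 2, 0 and 1 of the 10 members in the 3 comparisons. DESeq2 without sham 3, an alternative chosen after seeing the data, called 32 genes for SNI and 61 for SNI+LDN193189, each against sham, with 0 members in either, and 88 genes jointly, and turned Vim in SNI+LDN193189 against sham to 0.15. With the nerve root covariate the counts were 13, 0, 13 and 17. With no filter they were 2 in SNI+LDN193189 against SNI, 30 against sham, with Osmr (adjusted p = 0.0405) as the 1 member, and 25 jointly. Limma-voom and limma on FPKM each gave 0 in SNI+LDN193189 against SNI and 1 against sham, and the 2 groups alone gave 3 in the former. Causes were not tested. Leaving out 1 library gave 0 to 38 calls in SNI against sham (38, with 2 members, without sham replicate 1), 0 to 2 in SNI+LDN193189 against SNI, 1 to 7 against sham and 1 to 19 jointly; 0 to 2, 0 and 0 members were called.

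With the nerve root covariate the members' median log2 fold change moved to 0.15 in SNI against sham and 0.0101 in SNI+LDN193189 against sham. That covariate reversed Vim (0.21), Lcn2 (0.61), Steap4 (0.14) and Stat3 (0.0426) in SNI against sham; Serpina3n (-0.0107), S1pr3 (-0.0397), Steap4 (-0.30) and Stat3 (-0.0394) in SNI+LDN193189 against SNI; and Vim (0.26), Cd44 (0.017) and Stat3 (0.00317) against sham. Stat3 in SNI+LDN193189 against SNI also changed sign with library totals (-0.00241) and on FPKM (-0.00217). Leaving out 1 library reversed 0 member differences in SNI against sham, 1 against sham (Vim, -0.66 to 0.15) and 13 in SNI+LDN193189 against SNI, where the ranges that crossed 0 were those of Lcn2 (-0.49 to 0.20), Osmr (-0.0855 to 0.0341), Sphk1 (-0.30 to 0.0254), Serpina3n (-0.0345 to 0.0895), Stat3 (-0.0204 to 0.0348) and the members' median (-0.00274 to 0.07). That median ran from -0.39 to -0.12 in SNI against sham and from -0.40 to -0.02 in SNI+LDN193189 against sham.

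Replicate numbers gave no clear pairing of the samples: of 9 same-numbered pairs 2 correlated over 0.1 (r of -0.09 to 0.13), and 8 of 18 best matches were to the own number. With 3 libraries per group that differ in tissue markers, this check cannot exclude a shared batch. A replicate block gave 0, 0, 4 and 5 calls in the same order of tests, with 0 members in the 3 comparisons, and turned Lcn2 in SNI+LDN193189 against SNI to 0.0526. Low counts of Steap4, Sphk1 and Lcn2 set the widest counting error.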
